A study of Mus musculus with 9 samples.

Results

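The E proteins Tcf3, Tcf4 and Tcf12 and the inhibitors of DNA binding Id1, Id2, Id3 and Id4 were examined in 3 mouse leukemic cell lines. These 7 genes are the whole mammalian set of E protein and ID genes, were taken by name, and are 7 of the 50686 genes in the deposited count tables. Of these, 6 were read often enough to be tested. Id4 had 0 reads in all 9 libraries and was not tested.

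The cells were BCR/ABLp185+ lines, that is, bone marrow cells of C57BL/6N mice that were transformed by a retrovirus carrying the p185 form of the BCR/ABL oncogene, and all 3 lines carry it. They differ by label in the Stat5 gene that is missing. The study also reports that lines lacking Stat5b grew out later, and that lines lacking Stat5a or Stat5b had higher BCR/ABL levels. The wt line has both Stat5 genes, the Stat5a-/- line lacks Stat5a and the Stat5b-/- line lacks Stat5b, and the study asked how loss of each acts on the leukemic cells. RNA-seq of polyA RNA was made in 3 technical replicates of 1 line per genotype, so each test compares 1 cell line with 1 other and p-values measure the spread between replicate libraries only. A difference of genotype and a difference between individual lines cannot be told apart.

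E proteins are basic helix-loop-helix transcription factors that bind E boxes, DNA sites with the letters CANNTG, as dimers with each other or with tissue-restricted partners. ID proteins have the helix-loop-helix but no basic region, so a dimer of an E protein with an ID protein does not bind DNA. In early B lymphocytes E proteins are needed for commitment and for the rearrangement of immunoglobulin genes, and the ID genes respond to cytokines, bone morphogenetic proteins (BMP) and antigen receptor signals. The gene Tcf3 described here is not the HMG-box factor of the Wnt pathway that was given the same name in older work and is now called Tcf7l1.

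Libraries held between 11948136 and 19016396 counted reads. Levels are given as normalized CPM, that is, reads scaled to a common library total after TMM normalization. Each deleted gene was lower in its own line, but its reads did not vanish. Stat5a had 43.2 ± 6.35 normalized CPM in wt (SD, n = 3 libraries) and 12.4 ± 1.02 in Stat5a-/- libraries, and Stat5b had 105.5 ± 1.96 in wt and 63.4 ± 7.72 in Stat5b-/- libraries. The fall of Stat5b was 1.66-fold, in a comparison where 22% of all tested genes were called lower. The other Stat5 gene was higher than in wt, Stat5a 1.94-fold in Stat5b-/- and Stat5b 1.34-fold in Stat5a-/-. The description field of the knockout samples calls them wt, against their titles and genotype labels, which these values follow. All 10 B-lineage markers on the list used were detected, and their summed level was 6126 to 6294 normalized CPM in wt, 7399 to 8026 in Stat5a-/- and 7048 to 7899 in Stat5b-/- libraries. By the test described below, 6 rose and 2 fell in Stat5a-/- against wt, and 5 rose and 2 fell in Stat5b-/-. Rag1, on this list, fell in both, from 64.7 normalized CPM in wt to 0.158 in Stat5a-/- and 0.667 in Stat5b-/-. T-cell genes were read as well, which is returned to beside Id2 and Id3.

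Id1, Id2 and Tcf4 fell in Stat5a-/- against wt and none of the other members was called there. In Stat5b-/- against wt, Id2 and Id3 rose and Id1 fell. Between the knockout lines, Id2 and Id3 were called higher in Stat5b-/- and no member was called lower. Calls came from the quasi-likelihood F test of edgeR at a limit of 0.05, with p-values adjusted by the Benjamini-Hochberg method over all 13852 tested genes. Calls were common in these comparisons. Against wt, 19.8% of all tested genes were called higher and 16.3% lower in Stat5a-/-, and 24.2% were called higher and 22% lower in Stat5b-/-. Between the knockout lines 16.4% of genes were called higher in Stat5b-/- and 17.5% were called lower. The 3 of 6 members called in each comparison with wt therefore stand beside a large background, and nothing particular to the members is read from their number.

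Differences of more than 2-fold, the limit used in the study, were seen for 0 of the 6 members in Stat5a-/- against wt, where 14.2% of all genes passed both limits. In Stat5b-/- against wt, where 19.1% of genes passed, they were seen for Id3, which rose, and Id1, which fell. In Stat5b-/- against Stat5a-/-, where 11.4% passed, they were seen for Id2 and Id3. The libraries of the lines compared did not overlap for 3 of 6 members in each comparison with wt and for 5 of 6 in the direct comparison, against 49.2%, 54.2% and 44.8% of all tested genes. The median log2 fold change of the 6 members was -0.29 in Stat5a-/- against wt, 0.24 in Stat5b-/- against wt and 0.22 in the direct comparison, where the medians over all tested genes were 0.0099, 0.023 and 0.020. Both comparisons with wt use the same wt libraries.

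**Figure D1:**
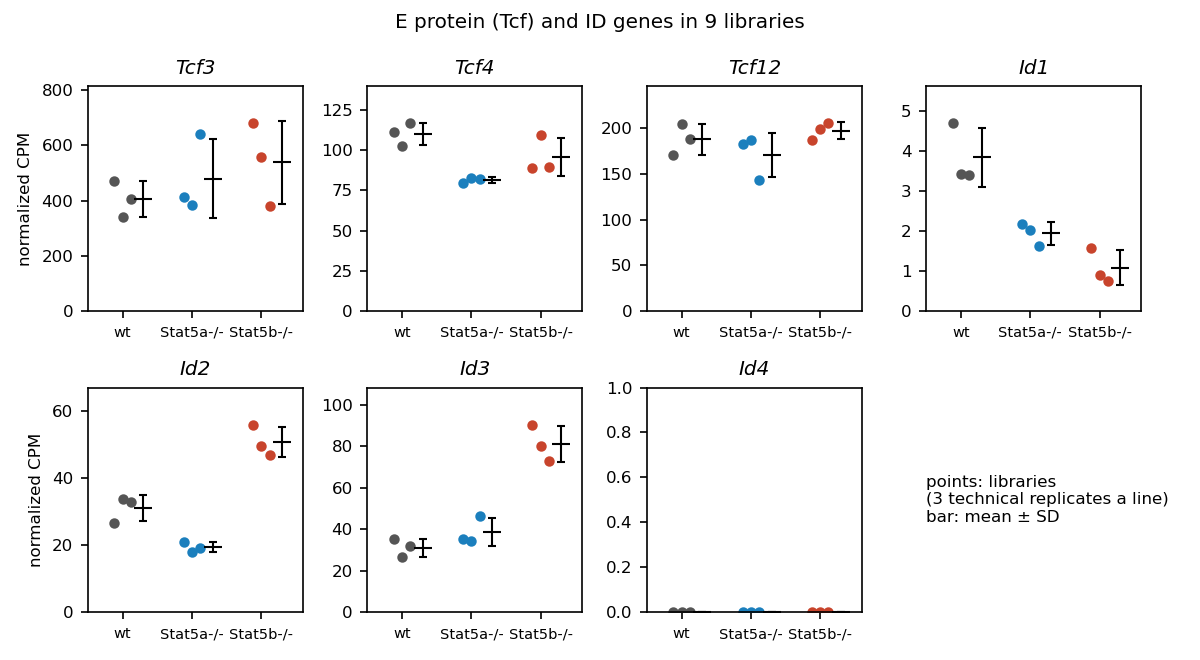
Normalized CPM of the 7 genes in each of the 9 libraries, with 1 panel per gene, a linear axis from 0 and the mean ± SD of the 3 libraries of a line beside its points. Id2 and Id3 of the Stat5b-/- libraries lie above those of both other lines, Id1 is highest in wt, Tcf3 spreads widely within each line and Id4 is at 0 throughout.

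Id2, an inhibitor needed for innate lymphoid and natural killer cells, lies on the minus strand of chromosome 12 (ENSMUSG00000020644.8, 25093801 to 25096092 of GRCm38) and was called in opposite directions in the knockout lines. Its 250 bases before the transcription start, from RefSeq on GRCm38.p6 (chr12:25096093-25096342, minus strand), are shown because they hold an E box of the form CAGCTG, at 196 to 191 bases before the start, printed in capitals.

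Id2: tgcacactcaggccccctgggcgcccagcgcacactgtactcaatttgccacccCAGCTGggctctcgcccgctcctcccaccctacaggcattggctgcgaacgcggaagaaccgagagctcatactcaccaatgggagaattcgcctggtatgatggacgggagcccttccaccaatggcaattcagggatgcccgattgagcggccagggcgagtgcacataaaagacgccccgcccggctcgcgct

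An E box (CANNTG, which reads the same on both strands) was found in 66.2% of 32851 such windows and the form CAGCTG in 13%, so a match here is a description of the letters. The Id2 window also holds GGCGCC, a GC-rich motif bound by SMAD proteins, at 231 to 226 bases before the start, as do 9.59% of windows. The STAT motif TTCNNNGAA, found in 7.02% of windows, had no match in it.

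Id2 had 26.7, 33.9 and 32.9 normalized CPM in the wt libraries, 21.0, 18.1 and 19.2 in Stat5a-/- and 55.95, 49.8 and 46.9 in Stat5b-/-. The 3 lines were fully separated, with every Stat5a-/- library below every wt library and every Stat5b-/- library above. Relative to 31.2 ± 3.90 in wt (SD, n = 3), the level was 19.4 ± 1.47 in Stat5a-/-, a log2 fold change of -0.68 (SE 0.13, adjusted p = 8.33e-04). It was 50.9 ± 4.62 in Stat5b-/-, a log2 fold change of 0.71 (SE 0.12, adjusted p = 3.85e-04), which is a rise of 1.63-fold. Compared directly, Stat5b-/- libraries had 2.62-fold more Id2 than Stat5a-/- libraries (log2 fold change 1.39, SE 0.13, adjusted p = 2.67e-06).

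Id3, the inhibitor that is induced by antigen receptor signals through EGR factors, lies on the plus strand of chromosome 4 (ENSMUSG00000007872.3, 136143497 to 136145755). It had 35.2, 26.5 and 31.8 normalized CPM in wt, 35.5, 34.3 and 46.3 in Stat5a-/- and 90.3, 80.4 and 72.9 in Stat5b-/- libraries. The Stat5b-/- libraries were above all others, while those of wt and Stat5a-/- overlapped. From a mean of 31.1 ± 4.39 in wt, Id3 went to 81.2 ± 8.73 in Stat5b-/- libraries, and the log2 fold change against wt was 1.38 in Stat5b-/- (SE 0.14, adjusted p = 5.15e-06), a rise of 2.61-fold. In Stat5a-/-, with a mean of 38.7 ± 6.59, it was 0.31 (SE 0.15, adjusted p = 0.115), which did not pass. The direct comparison gave 2.10-fold more Id3 in Stat5b-/- than in Stat5a-/- libraries (log2 fold change 1.07, SE 0.14, adjusted p = 9.04e-05). The RefSeq window of Id3, which lies inside the deposited gene model, held no E box, GGCGCC or TTCNNNGAA.

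Id1, a known target of STAT5 in early B-cell lines and of BMP signaling elsewhere, is a short gene on chromosome 2 (ENSMUSG00000042745.9, 152736251 to 152737410, plus strand) and was read at a low level. Its read numbers were 74, 68 and 59 in wt, 31, 25 and 18 in Stat5a-/- and 23, 13 and 10 in Stat5b-/- libraries. As normalized CPM this was 4.70, 3.43 and 3.41 in wt, 2.17, 2.03 and 1.62 in Stat5a-/- and 1.58, 0.888 and 0.762 in Stat5b-/-. The libraries of the 3 lines did not overlap, with wt highest and Stat5b-/- lowest.

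Id1 fell 1.95-fold in Stat5a-/- (log2 fold change -0.97, SE 0.26, adjusted p = 0.0102) and 3.52-fold in Stat5b-/- (log2 fold change -1.81, SE 0.28, adjusted p = 1.56e-04), from 3.85 ± 0.736 in wt to 1.94 ± 0.284 and 1.08 ± 0.439. Stat5b-/- libraries were lower than Stat5a-/- libraries by 0.85 on the log2 scale (SE 0.31, adjusted p = 0.0534), which did not pass. That difference passed without a filter on low counts (adjusted p = 0.0414), without wt replicate 1 (adjusted p = 0.0483) and without Stat5b-/- replicate 1 (log2 fold change -1.24, adjusted p = 0.0147). It did not pass in the fits without any other single library (adjusted p up to 0.159).

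Id4, on chromosome 13 (ENSMUSG00000021379.1, 48261427 to 48264036, plus strand), is best known from neural and mammary progenitors. With 0 reads in every library, a level of up to 3 reads per library is allowed, which is 0.15 to 0.27 normalized CPM depending on the library and covers counting error only. No fold change is given for it.

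**Figure D2:**
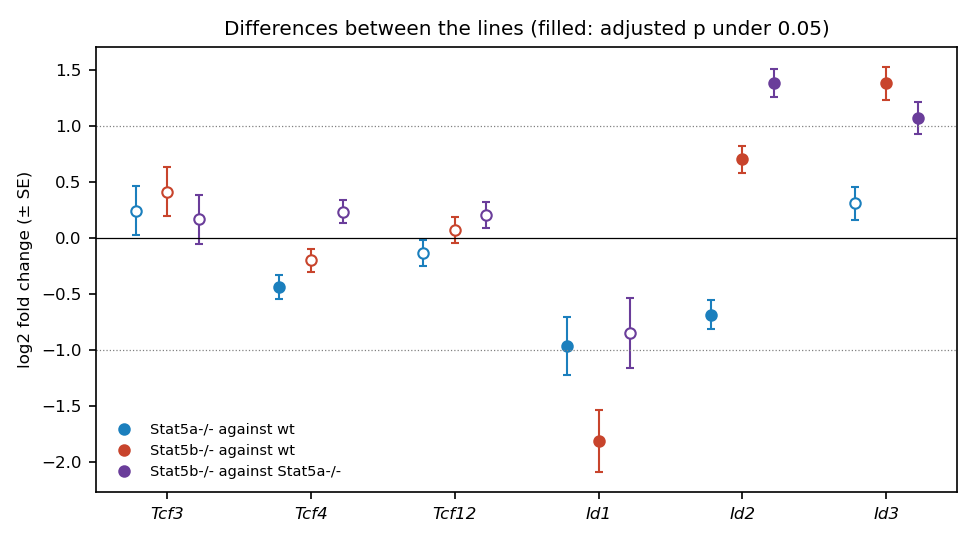
Log2 fold change with its standard error for the 6 tested genes in the 3 comparisons, where filled points have an adjusted p under 0.05 and dotted lines mark 2-fold. Id2 lies below 0 in Stat5a-/- against wt (-0.68) and above 0 in Stat5b-/- against wt (0.71), and the E protein genes lie nearer to 0 than Id1 and, in Stat5b-/-, Id3.

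Of the E proteins, Tcf4 passed the test in Stat5a-/- against wt, and no other comparison of an E protein gene passed. Tcf4, the E protein that directs plasmacytoid dendritic cells, lies on chromosome 18 (ENSMUSG00000053477.16, 69343356 to 69689079, plus strand). It had 111.2, 102.7 and 116.7 normalized CPM in wt, 79.7, 82.5 and 82.3 in Stat5a-/- and 88.9, 109.8 and 89.6 in Stat5b-/- libraries. All Stat5a-/- libraries were below those of both other lines, and the Stat5b-/- libraries overlapped wt in replicate 2.

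The level of Tcf4 fell 1.35-fold in Stat5a-/-, from 110.2 ± 7.08 to 81.5 ± 1.56 (log2 fold change -0.44, SE 0.11, adjusted p = 0.00543). With 96.1 ± 11.9 in Stat5b-/-, its log2 fold change there was -0.20 (SE 0.10, adjusted p = 0.142), and -0.31 (adjusted p = 0.038) without Stat5b-/- replicate 2. The difference between the knockout lines was 0.24 (SE 0.11, adjusted p = 0.102), so the call in 1 line and not the other does not show that they differ. With an offset for the GC content of genes in each library, the fall in Stat5a-/- was no longer called (log2 fold change -0.29, adjusted p = 0.102). The 6 markers of plasmacytoid dendritic cells, all detected, summed to 105 to 121 normalized CPM in wt, 57.3 to 59.9 in Stat5a-/- and 60.9 to 86.2 in Stat5b-/- libraries. The lower sums are those of Cox6a2, named after its value was seen, at 69.2 normalized CPM in wt, 1.97 in Stat5a-/- and 4.71 in Stat5b-/-. Of the 5 markers tested, 0 rose and 1 fell in Stat5a-/- (median log2 fold change 0.36), and 3 rose and 1 fell in Stat5b-/- (median 1.07). The part of these markers in the difference in Tcf4 was not tested.

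Tcf12, also called HEB, is a partner of Tcf3 in B and T lymphocyte precursors and lies on the minus strand of chromosome 9 (ENSMUSG00000032228.16, 71842688 to 72111871). Its values were 170.6, 204.4 and 188.3 normalized CPM in wt, 183.0, 186.5 and 143.1 in Stat5a-/- and 187.1, 199.6 and 205.1 in Stat5b-/- libraries. It passed no comparison, with log2 fold changes of -0.14 in Stat5a-/- (SE 0.12, adjusted p = 0.397), 0.071 in Stat5b-/- (SE 0.12, adjusted p = 0.644) and 0.21 between the knockout lines (SE 0.12, adjusted p = 0.191). Small gene models within its span held at most 26 reads in a library, against at least 1587 for Tcf12.

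Tcf3, the E protein without which B-cell development stops at its earliest stage, lies on the minus strand of chromosome 10 (ENSMUSG00000020167.14, 80409514 to 80433647). The 238 bases before its start that lie outside the deposited gene model, from RefSeq on GRCm38.p6 (chr10:80433648-80433885, minus strand), are shown as those of the E protein with the most reads, with the only E box in the window, CACTTG at 54 to 49 bases before the start, in capitals.

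Tcf3: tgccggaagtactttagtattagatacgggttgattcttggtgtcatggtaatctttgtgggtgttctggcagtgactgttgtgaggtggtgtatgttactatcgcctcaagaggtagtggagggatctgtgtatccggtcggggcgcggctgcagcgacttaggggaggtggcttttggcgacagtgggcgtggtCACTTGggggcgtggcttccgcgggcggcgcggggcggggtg

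The 250-base window of Tcf3 held neither the form CAGCTG nor the form CAGGTG, which was in 17.2% of all windows. The SMAD and STAT motifs had no match in it on either strand. Of the 3 RefSeq start windows of Tcf12, a pair held 1 E box each and the other none.

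The libraries of a line spread widely in Tcf3. It had 469.3, 339.1 and 404.5 normalized CPM in wt, 412.2, 385 and 642.5 in Stat5a-/- and 679.3, 558.1 and 380.5 in Stat5b-/- libraries. The ranges of all 3 lines overlapped. The means of 404.3 ± 65.1, 479.9 ± 141.5 and 539.3 ± 150.3 gave log2 fold changes of 0.25 in Stat5a-/- (SE 0.22, adjusted p = 0.417) and 0.42 in Stat5b-/- (SE 0.22, adjusted p = 0.142), and neither passed. Without Stat5a-/- replicate 3 the value in Stat5a-/- was -0.049 (adjusted p = 0.884).

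The spread of Tcf3 moved with the GC content of the library. The longest transcript of Tcf3 is 61% G and C, the highest value of the 6 tested members. Libraries of a line differed by GC content across all genes, with correlations between a gene's GC content and the library's deviation from its line of 0.52, -0.54 and -0.066 in wt, -0.41, -0.36 and 0.58 in Stat5a-/- and 0.36, 0.18 and -0.50 in Stat5b-/-. Tcf3 followed the order of these correlations in 2 of 3 lines, as did Id3, and in all 3 lines the library with the highest correlation was that with the most Tcf3. These correlations are across genes, which are not independent replicates.

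After an offset for GC content, Tcf3 was at 418.7, 384 and 418.8 normalized CPM in wt, 407.2, 376.4 and 494.5 in Stat5a-/- and 647.5, 587.2 and 488 in Stat5b-/- libraries. Its coefficient of variation went from 16.1% to 4.93% in wt, from 29.5% to 14.4% in Stat5a-/- and from 27.9% to 14.0% in Stat5b-/-. The offset also narrowed the spread of Id3 and Tcf12 in every line, of Id2 in wt and of Id1 in wt and Stat5b-/-. For Id3 the coefficient of variation in Stat5b-/- went from 10.8% to 3.54%. Wider spread was seen for Tcf4 in every line, for Id2 in both knockout lines and for Id1 in Stat5a-/-. The coefficient of variation of Tcf4 went from 6.43% to 15.5% in wt, from 1.92% to 14.7% in Stat5a-/- and from 12.3% to 17.9% in Stat5b-/-, and that of Id2 in Stat5b-/- from 9.08% to 14.4%. On that scale the log2 fold change of Tcf3 in Stat5a-/- against wt was 0.065 (adjusted p = 0.678). Tcf3 was higher in Stat5b-/- than in wt (log2 fold change 0.50, adjusted p = 0.00188) and than in Stat5a-/- (0.43, adjusted p = 0.0069). Without the offset, the direct comparison of the knockout lines gave 0.17 (SE 0.22, adjusted p = 0.587), and -0.040 without Stat5b-/- replicate 1. The difference of Stat5b-/- from wt was called without Stat5b-/- replicate 3 (0.62, adjusted p = 0.0208) and without a filter on low counts (0.40, adjusted p = 0.00412). It was not called with DESeq2 (0.38, adjusted p = 0.211), with RLE normalization (0.39, adjusted p = 0.175) or with any other library left out, among them Stat5b-/- replicate 1 (0.19, adjusted p = 0.544) and wt replicate 2 (0.30, adjusted p = 0.347).

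**Figure D3:**
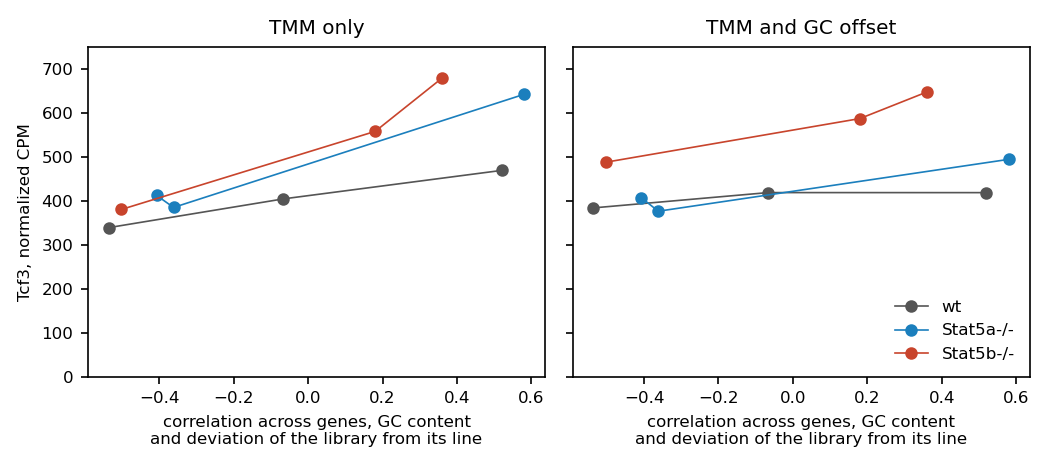
Normalized CPM of Tcf3 in each library (points, joined within a line) against the correlation across genes of GC content with the deviation of that library from its line, before (left) and after (right) an offset for GC content. Before the offset the libraries with the most Tcf3 (469.3 for wt, 642.5 for Stat5a-/- and 679.3 for Stat5b-/-) are those farthest to the right in their line, and after it the Stat5b-/- libraries (488 to 647.5) lie above wt (384 to 418.8).

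Levels of different genes were compared per kilobase of gene model. By this length, Tcf3 was highest in wt libraries with 100.1 ± 16.1 normalized CPM per kb, followed by Id2 with 24.5 ± 3.07, Id3 with 17.4 ± 2.45, Tcf12 with 12.1 ± 1.09, Tcf4 with 4.03 ± 0.259 and Id1 with 3.31 ± 0.635. The neighbours Tcf4 and Id1 overlapped between libraries in wt. In Stat5b-/- libraries, by the same length, Id3 (45.3 ± 4.88 per kb) and Id2 (40.1 ± 3.64) followed Tcf3 (133.5 ± 37.2), and Id1 was at 0.927 ± 0.378.

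Tcf3 made up 85.9% of the summed level of the E proteins per kb in wt libraries, 88.9% in those of Stat5a-/- and 88.6% in those of Stat5b-/-. Among the ID genes, Id2 gave 54.2% in wt and 39.8% in Stat5a-/-, and Id3 gave 38.4% in wt against 55.8% in Stat5a-/- and 52.5% in Stat5b-/-. The order of genes below Tcf3 depends on the length used. With the longest transcript of each gene, the level in wt was 29.8 ± 2.69 normalized CPM per kb for Tcf12, 24.4 ± 3.43 for Id3, 15.8 ± 1.98 for Id2, 12.8 ± 0.826 for Tcf4 and 3.31 ± 0.635 for Id1. In Stat5b-/- libraries it was 63.5 ± 6.83 for Id3, 31.3 ± 1.47 for Tcf12 and 25.8 ± 2.35 for Id2, all below Tcf3. The order within a gene across lines does not depend on length.

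The ID genes together were at 45.2 ± 1.16 normalized CPM per kb in wt libraries, at 38.6 ± 3.63 in Stat5a-/- and at 86.3 ± 8.86 in Stat5b-/-. The E proteins were at 116.2 ± 15.2, 132.8 ± 33.5 and 149.7 ± 36.7, in the same order of lines. The share of ID transcripts in the sum of both classes was 25.4, 30.6 and 28.6% in wt, 24.7, 24.1 and 19.8% in Stat5a-/- and 34.3, 35.4 and 41.4% in Stat5b-/- libraries. The Stat5b-/- libraries were above and the Stat5a-/- libraries below all wt libraries. The share is a description over chosen genes and was not tested, and it is a share of RNA, not of protein.

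**Figure D4:**
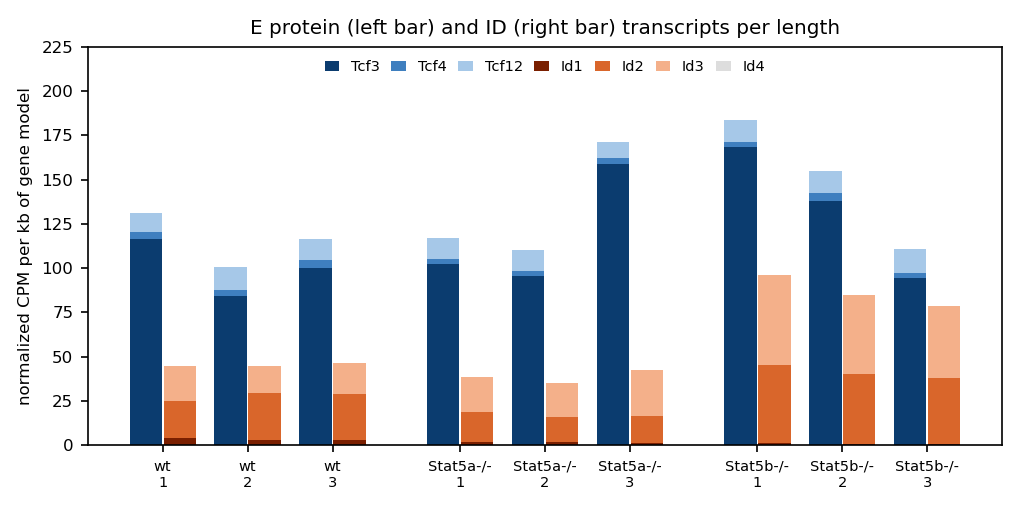
Normalized CPM per kb of gene model in each library, stacked over the 3 E protein genes (left bar, blue) and the 4 ID genes (right bar, orange), on a linear axis from 0. The ID bars of the Stat5b-/- libraries are the tallest (mean 86.3, against 45.2 in wt and 38.6 in Stat5a-/-), and the height of the E protein bars follows that of Tcf3.

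Transcripts of T cells were higher in the libraries where Id2 and Id3 were highest. The 16 T-cell markers, none of them at 0, summed to 913.2 to 1211 normalized CPM in wt, 1635 to 1878 in Stat5a-/- and 2071 to 2890 in Stat5b-/- libraries, and 9 of 16 rose in Stat5a-/- and 15 of 16 in Stat5b-/- against wt. The sum of 9 markers of natural killer and innate lymphoid cells, cells that use Id2, was 76.9 to 112.5 in wt, 101.1 to 121.7 in Stat5a-/- and 145.6 to 225.9 in Stat5b-/- libraries, and 2 of the 9 stayed under 10 reads in every library. Of the 7 tested, 1 rose and 1 fell in Stat5a-/-, and 5 rose and 1 fell in Stat5b-/-. The gene that fell in both was Klrb1c, named after its value was seen, with log2 fold changes of -1.20 and -2.65. Of 10 myeloid markers, 6 stayed under 10 reads in every library, and their sum of 156.4 to 207.1 in wt, 262.3 to 290 in Stat5a-/- and 343.5 to 434.9 in Stat5b-/- was nearly all Ly6c2, also named after its value was seen (means of 179.8, 267.8 and 387.2). In bulk RNA, a change in the number of cells of a type and a change in RNA per cell cannot be told apart.

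Across the lines, the mean of Id3 had the order of the T-cell marker sum, though its wt and Stat5a-/- libraries overlapped, while Id2 had another order. In Stat5a-/- libraries the marker sum was above wt while Id2 was below it. Within lines, Id2 followed the order of the marker sum in 1 of 3 lines. Id3 followed it in 0 of 3 and had the opposite order in 2, and it followed the order of GC content in 2 of 3. With the GC offset, Id3 was at 87.3, 81.8 and 82.7 normalized CPM in Stat5b-/- libraries, which is the order of the marker sum there. The part of T-cell transcripts in Id2 and Id3 was not tested. The 8 markers of erythroid cells and megakaryocytes were near 0, at 0.762 to 2.08 normalized CPM in sum, and Pf4 was at 0 in every library.

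With the T-cell marker sum of each library as a covariate, a choice made with the data in view, Id3 was still called in Stat5b-/- against wt (log2 fold change 1.89, adjusted p = 0.0255) and Id2 in Stat5a-/- against wt (-0.95, adjusted p = 0.0128). Between the knockout lines Id2 (1.18, adjusted p = 0.00137) and Id3 (1.29, adjusted p = 0.00317) were still called. The calls of Id2 (0.23, adjusted p = 0.744) and Id1 (-1.59, adjusted p = 0.32) in Stat5b-/-, and those of Id1 (-0.84, adjusted p = 0.318) and Tcf4 (-0.13, adjusted p = 0.648) in Stat5a-/-, were lost. The marker sums of the 3 lines do not overlap, so the covariate and the genotype are nearly the same split, and with it the share of all tested genes called went from 36% to 19.7% in Stat5a-/- and from 46.2% to 7.86% in Stat5b-/- against wt.

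**Figure D5:**
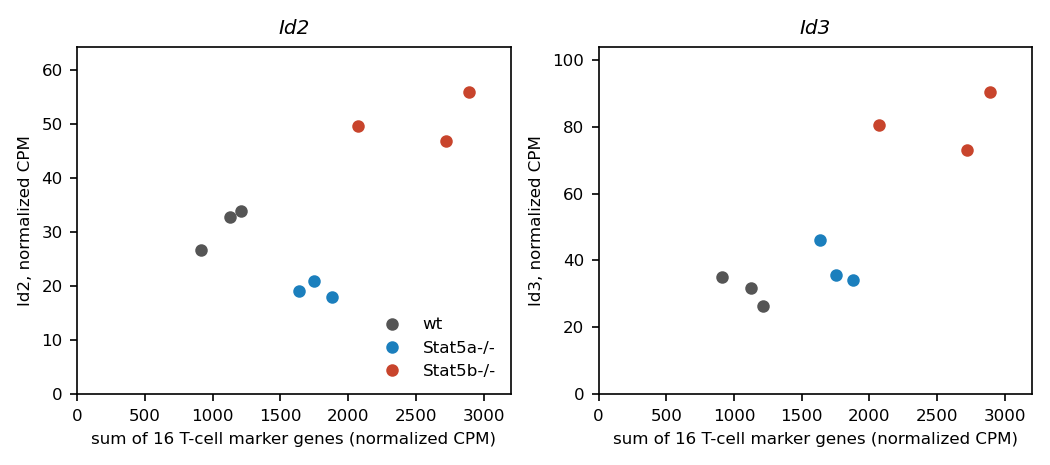
Normalized CPM of Id2 (left) and Id3 (right) against the summed normalized CPM of 16 T-cell markers in the 9 libraries. The Stat5b-/- libraries are highest on both axes, while the Stat5a-/- libraries, with marker sums of 1635 to 1878, lie below wt for Id2.

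Several calls of the genes named from here on did not hold with the T-cell marker sum as a covariate. In Stat5b-/- against wt they were those of Tal1 (-1.80, adjusted p = 0.253), Bhlha15 (-1.63, adjusted p = 0.212), Cbfa2t2 (0.54, adjusted p = 0.367), Hes1 (1.04, adjusted p = 0.0683), Zeb2 (-0.79, adjusted p = 0.164), Bhlhe40 (-1.17, adjusted p = 0.061), Snai3 (0.50, adjusted p = 0.671), Skp2 (-1.03, adjusted p = 0.121), Tcf7l1 (-2.06, adjusted p = 0.199) and Tcf7 (0.013, adjusted p = 0.983). In Stat5a-/- against wt they were those of Cbfa2t2 (-0.21, adjusted p = 0.529), Tcf7l1 (-1.40, adjusted p = 0.107) and Tcf7. Of the knocked-out genes, the calls of Stat5b in Stat5b-/- (-0.83, adjusted p = 0.212) and in Stat5a-/- (0.37, adjusted p = 0.284) were lost too. Vpreb1, Smad1, Bambi and Smad7 were not followed in this fit or in the other alternatives.

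Counts of calls in the lists from here on stand beside the shares of all tested genes. Against wt these were 19.8% higher and 16.3% lower in Stat5a-/-, and 24.2% and 22% in Stat5b-/-. Between the knockout lines they were 16.4% and 17.5%. Nothing particular to a list is read from its count. Of 6 tissue-restricted partners with which E proteins form dimers, 3 were tested, of which 2 fell and none rose in Stat5b-/- against wt and none was called in Stat5a-/-, with medians of -2.19 and 0.11. Tal1, which forms a DNA-binding complex with E proteins in blood stem cells, had 9.08 ± 1.65 normalized CPM in wt libraries, against 6.88 ± 1.28 in Stat5a-/- and 1.95 ± 0.907 in Stat5b-/-, a log2 fold change of -2.19 in Stat5b-/- (SE 0.28, adjusted p = 2.80e-05). Bhlha15, a factor of secretory cells, had 5.71 ± 0.625, 7.93 ± 0.828 and 1.12 ± 0.484 (log2 fold change -2.33 in Stat5b-/-, SE 0.25, adjusted p = 7.45e-06). Both were also lower in Stat5b-/- than in Stat5a-/-, by 1.79 (adjusted p = 3.67e-04) and 2.80 (adjusted p = 2.32e-06) on the log2 scale.

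Of 9 cofactors of E proteins, 7 were tested. In Stat5b-/- against wt 2 rose and none fell (median 0.043), and in Stat5a-/- 1 fell and none rose (median 0.21). Lmo2, which bridges Tal1 and E proteins to other factors, rose to 29.1 ± 1.28 normalized CPM in Stat5b-/- from 15.3 ± 1.51 in wt (log2 fold change 0.93, SE 0.13, adjusted p = 6.49e-05). Cbfa2t2, a corepressor of the ETO family, rose in Stat5b-/- (0.38, SE 0.11, adjusted p = 0.0123) and fell in Stat5a-/- (-0.30, SE 0.11, adjusted p = 0.0492), but neither call held throughout. That in Stat5a-/- was lost when any single wt or Stat5a-/- library or Stat5b-/- replicate 2 was left out, without a filter on low counts (adjusted p = 0.118) and with the replicate number as a block (adjusted p = 0.0939), and that in Stat5b-/- without wt replicate 2 (adjusted p = 0.0521), wt replicate 3 (adjusted p = 0.0629) or Stat5b-/- replicate 1 (adjusted p = 0.0678).

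All 17 genes on a list of E protein targets in B-cell development were tested. In Stat5a-/- against wt 7 rose and 6 fell (median 0.21), in Stat5b-/- 8 rose and 6 fell (median 0.25), and between the knockout lines 6 were higher and 2 lower in Stat5b-/- (median 0.17). Rag1 and Rag2, the recombinase that joins immunoglobulin segments, had 1002 to 1328 and 477 to 744 reads in wt libraries. In Stat5a-/- libraries they had 1 to 3 and 0 to 2 reads, and in Stat5b-/- libraries 7 to 11 and 6 to 16, and both genes fell in both lines. Gfi1b, a repressor that is a direct target of E proteins, fell in Stat5a-/- from 181 ± 27.2 to 6.15 ± 1.08 normalized CPM (log2 fold change -4.89, SE 0.18, adjusted p = 3.43e-10) and was at 164.2 ± 24.6 in Stat5b-/- (-0.14, SE 0.14, adjusted p = 0.45). Vpreb2, a surrogate light chain gene whose near-identical copy Vpreb1 may share reads, fell in Stat5b-/- from 222.5 ± 20.5 to 59.6 ± 3.36 (-1.90, SE 0.10, adjusted p = 7.65e-09), while the counts of Vpreb1 rose from a mean of 127.8 to 180.7 (0.50, adjusted p = 0.00371).

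Of 18 genes of the BMP, TGF-beta and EGR pathways that act on the ID genes, 16 were tested. In Stat5a-/- against wt 4 rose and 7 fell (median -0.056), and in Stat5b-/- 7 rose and 6 fell (median 0.16). Members of the BMP pathway were called in both directions. Bmpr2, the type II BMP receptor, had 47.7 to 56.5 normalized CPM in wt, 3.29 to 4.88 in Stat5a-/- and 2.39 to 4.65 in Stat5b-/- libraries, with log2 fold changes of -3.74 (SE 0.20, adjusted p = 1.01e-08) and -3.97 (SE 0.20, adjusted p = 5.72e-09).

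Bmpr1a, a type I receptor, fell from 36.3 ± 4.63 normalized CPM in wt to 5.71 ± 1.53 in Stat5a-/- (log2 fold change -2.65, SE 0.18, adjusted p = 9.44e-08) and 13.2 ± 1.13 in Stat5b-/- (-1.46, SE 0.16, adjusted p = 9.69e-06). Acvr2a, an activin and BMP receptor, fell from 10.7 ± 1.72 to 2.09 ± 0.951 (-2.32, SE 0.27, adjusted p = 1.47e-05) and 2.68 ± 0.425 (-1.997, SE 0.26, adjusted p = 3.21e-05). Smad9, a transducer of BMP signals, had 45, 52 and 38 reads in wt and 0 in all 6 knockout libraries. Taking 3 reads per library as the limit of a count of 0, it was at least 10.6-fold lower in Stat5a-/- and at least 12.01-fold lower in Stat5b-/-. The medians of the list were the same with Smad9 at this bound. In the other direction, and named after their values were seen, Smad1, another transducer of BMP signals, rose in Stat5b-/- (log2 fold change 0.88, adjusted p = 0.00711), and the pathway inhibitors Bambi (1.39 and 0.74, adjusted p = 2.48e-04 and 0.0184) and Smad7 (0.54 and 0.74, adjusted p = 0.00167 and 1.20e-04) rose in Stat5a-/- and Stat5b-/-.

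Repressors that bind E boxes without being E proteins moved in both directions. Of 9 on the list 6 were tested, of which 3 rose and 1 fell in Stat5a-/- (median 0.65) and 4 rose and 2 fell in Stat5b-/- (median 0.62). Bhlhe41 rose from 14.5 ± 1.76 normalized CPM in wt to 29.6 ± 5.86 in Stat5a-/- (log2 fold change 1.03, adjusted p = 4.65e-04) and 70.7 ± 14.6 in Stat5b-/- (2.29, adjusted p = 2.91e-07), while its relative Bhlhe40 fell in Stat5b-/- (-1.30, adjusted p = 7.03e-07) and was at -0.0038 in Stat5a-/- (adjusted p = 0.984). Hes1, a Notch target, rose in both lines, to 47.2 ± 1.52 in Stat5a-/- and 31.2 ± 2.06 in Stat5b-/- from 19.0 ± 1.41 in wt (adjusted p = 5.38e-07 and 1.19e-04). Zeb2 fell in both, with log2 fold changes of -1.19 (adjusted p = 1.47e-06) and -1.13 (adjusted p = 1.95e-06), and Snai3 rose in Stat5b-/- (1.16, adjusted p = 4.33e-04).

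Of 6 genes that act on the stability of E and ID proteins, 2 rose and 1 fell in Stat5a-/- (median 0.12) and 1 rose and 1 fell in Stat5b-/- (median 0.14). Asb2, a ubiquitin ligase subunit that targets E proteins, rose from 16 to 26 reads in wt to 71 to 106 in Stat5a-/- and 31 to 79 in Stat5b-/- libraries, with log2 fold changes of 2.58 (SE 0.35, adjusted p = 6.79e-05) and 1.77 (SE 0.37, adjusted p = 0.00151). Skp2, a ligase subunit linked to turnover of Tcf3 protein, fell in both lines (-1.27, adjusted p = 1.91e-06, and -0.96, adjusted p = 1.87e-05). Stub1, a chaperone-associated ligase, rose in Stat5a-/- (0.68, adjusted p = 0.0011).

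All 4 HMG-box TCF/LEF genes, which share the name but not the DNA-binding domain of the E proteins, were tested, and 1 rose and 3 fell in Stat5a-/- (median -0.70), while 1 rose and 2 fell in Stat5b-/- (median -0.63). Tcf7, itself on the T-cell marker list, rose in Stat5a-/- (log2 fold change 0.59, adjusted p = 0.0035) and in Stat5b-/- (1.19, adjusted p = 1.15e-05). Tcf7l2 fell from 46.7 ± 2.89 normalized CPM in wt to 15.5 ± 2.15 in Stat5a-/- (-1.59, adjusted p = 9.41e-07) and 11.2 ± 1.60 in Stat5b-/- (-2.06, adjusted p = 8.27e-08). Tcf7l1, with 11 to 50 reads in a library, fell in both (-0.98, adjusted p = 0.0152, and -1.33, adjusted p = 0.00208), and the call in Stat5a-/- was lost without wt replicate 2 (adjusted p = 0.0554) or without Stat5a-/- replicate 1 (adjusted p = 0.0749).

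For each tested member, the genes with the most similar profile were those with the highest Pearson correlation of log2(normalized CPM + 0.5) over the 9 libraries, which share lines and GC content, so the values are descriptions. For Id3 they were Cxxc5 (0.995), Ogfr (0.990) and Gpr107 (0.989), for Id1 Lmna (0.992) and Gm43268 (0.982), and for Id2 Trim56 (0.987), Map7 (0.986) and Fubp1 (0.984). The E proteins had Mgat4b (0.992), Wdtc1 (0.987) and Otud5 (0.985) nearest to Tcf3, Aurka (0.970), Sirt5 (0.956) and Aoc2 (0.955) nearest to Tcf4, and Zfp607a (0.979), Phf6 (0.975) and Zfp617 (0.9735) nearest to Tcf12. No member was among the genes nearest to another. The number of genes with a correlation over 0.95 was 138 for Id3, 59 for Tcf3, 58 for Id2, 25 for Id1, 16 for Tcf12 and 3 for Tcf4.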

How the data were processed

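RNA-seq counts of 9 mouse libraries were used, grouped by the genotype in their titles. The authors removed adapters with Trimmomatic 0.36, mapped 50 bp single-end reads with STAR 2.5.2b to GENCODE M13 (GRCm38), counted reads on the exons of each gene with featureCounts 1.5.1 and deposited the counts without normalization. The file headers show no strand option, so reads of antisense partners cannot be told apart, and reads mapping to several places are dropped by default. Symbols, GC content and transcript lengths came from GENCODE M21, which named 50376 of the genes, and promoter windows from RefSeq, which matched 5 of the 7 members.

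Counts were normalized with TMM, filtered with filterByExpr and fitted on all 9 libraries with the quasi-likelihood test of edgeR 4.0.16 in R 4.3.3. GC content was known for 99.8% of tested genes, and its offset used loess with a span of 0.5. The standard error was the log2 fold change divided by the square root of F. The steps were tested on simulated counts. Within lines, replicate counts differed beyond sampling noise (chi-square per degree of freedom 4.81 to 29.7), so each was counted as a library. The reads carry no molecular identifiers and may repeat a molecule.

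The members and lists were chosen with earlier results of these data known. Besides the members and the knocked-out genes, the text names from each list up to 3 genes with the largest absolute log2 fold change per knockout line among those called whose libraries did not overlap wt, and the 3 genes nearest to each member, of which 1 for Id1 is not reported here. Pf4 is named as a marker at 0, and Cox6a2, Klrb1c, Ly6c2, Vpreb1, Smad1, Bambi and Smad7 were chosen after their values were seen and were not followed in the alternatives. The alternatives were DESeq2 1.42.0, RLE normalization, other filters, fits of the 2 lines compared, each library left out, a replicate block, an offset for GC content and a T-cell covariate. The human samples were not analysed here.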

Additional observations from a re-analysis of the deposited data

Results flagged for a closer look

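Id2 was marked because its differences from wt had opposite signs in the knockout lines and the difference between them was itself called. Against wt the log2 fold change was -0.68 in Stat5a-/- and 0.71 in Stat5b-/- libraries, and the direct comparison in edgeR gave 1.39 (adjusted p = 2.67e-06), with each of the 3 Stat5b-/- libraries above each of the 3 Stat5a-/- libraries. Groups of 3 libraries were not searched for outlying libraries.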

How the results depend on the processing

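The number of members called was 2 to 3 in Stat5a-/- against wt, 3 to 4 in Stat5b-/- against wt and 2 to 3 between the knockout lines over DESeq2, RLE normalization, the other filters, fits of the 2 lines compared, the replicate block and the GC offset, and 3 to 3, 3 to 4 and 2 to 3 with each library left out. The share of all tested genes called moved in the same fits, from 20% without a filter on low counts to 44.2% with the GC offset in Stat5a-/-, from 25.2% to 54.7% in Stat5b-/- and from 18.5% to 43.7% between the knockout lines, so the member counts are not read as stable. In all of these fits, Id2 and Id3 in Stat5b-/- against both lines, Id2 in Stat5a-/- and Id1 in both lines against wt were called. With the T-cell covariate, a choice made with the data in view, it was 1 in Stat5a-/- and 1 in Stat5b-/- against wt, and the log2 fold change of Tcf7 in Stat5a-/- reversed to -0.065 (adjusted p = 0.805), and that in Stat5b-/- went to 0.013 (adjusted p = 0.983), Tcf7 being part of that covariate. The share of ID transcripts was 8.63% in wt, 7.62% in Stat5a-/- and 13.9% in Stat5b-/- without division by gene length, and 19.6%, 17.5% and 28.9% with the longest GENCODE transcript, with the same order of the lines.

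Libraries that share a replicate number did not, on average, deviate from their lines in common (mean correlation -0.11 over 9 pairs, against 0.055 over 18 pairs of different numbers). The correlations ranged widely, from -0.56 to 0.29 and from -0.52 to 0.48, so they cannot show whether the numbers pair the libraries. With the number as a replicate block, 3 members were called in each comparison, where 31.1%, 41.5% and 28.1% of all tested genes were called, and Id1 passed between the knockout lines (log2 fold change -0.86, adjusted p = 0.0426). Under the block with the GC offset, Tcf3 was at 0.50 in Stat5b-/- against wt (adjusted p = 0.00506), and Id1 did not pass between the knockout lines (-0.72, adjusted p = 0.0543). Depth limits Id1, with as few as 10 reads in a library.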
